A study of Rattus norvegicus with 12 samples.

Results

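The glutathione S-transferases (GST), UDP-glucuronosyltransferases (UGT) and sulfotransferases (SULT) are the main conjugating enzymes that attach a water-soluble group to drugs, dietary chemicals, bile acids and hormones. Their genes were taken by symbol, as every gene whose name starts with Gst followed by a class letter (a, k, m, o, p or t) and a digit, with Ugt and a digit, or with Sult and a digit. Of 18749 genes in the rat intestine count table, 47 met this rule: 22 GST, 15 UGT and 10 SULT genes. After a filter on low counts, 37 of the 47 were tested (21 GST, 8 UGT and 8 SULT genes). The 10 that did not pass were Gstt4, Ugt1a8, Ugt2a3, Ugt2b15, Ugt2b17, Ugt2b35, Ugt2b37, Ugt2b7, Sult1c3 and Sult6b1.

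GST enzymes join glutathione to reactive electrophiles, and the soluble enzymes are sorted into alpha, mu, pi, theta, kappa and omega classes. UGT enzymes of the endoplasmic reticulum transfer glucuronic acid from UDP-glucuronate, and cytosolic SULT enzymes transfer sulfate from 3'-phosphoadenosine-5'-phosphosulfate (PAPS). Enterocytes carry all of these activities, which act on swallowed chemicals before they reach the liver. Many of the genes lie in clusters of close copies, and the UGT1A enzymes share their last exons at a single locus.

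The samples were intestine of wild-type rats, all labelled as batch 1, and each of 3 groups held 4 libraries of polyadenylated RNA. The group postSTC (replicates 1, 2, 5 and 7) was collected postoperatively, preSTC (replicates 1, 5, 7 and 9) preoperatively, and preCTC (replicates 1, 5, 7 and 9) ahead of a sham operation, in a series on the small intestine after removal of the colon. The labels do not give strain, sex, age, time since the operation or what STC and CTC stand for, and no group following the sham operation was analysed, so that operation and elapsed time cannot be told apart. Because nothing in the labels ties each library to a separate animal, the p-values reflect the spread among these samples alone. That spread was beyond counting error, with a chi-square per gene of 32.0 to 1682 between libraries of a group. Whether it is spread between animals, and how much of it is technical, is not known.

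Libraries held 30095656 to 39374682 counts, and several departed from the label intestine or from their group. Ileal enterocyte genes marked preSTC (Fabp6, the ileal bile acid binding protein, 4167 ± 440 CPM, SD, n = 4), whereas in preCTC Fabp6 was at 5.45 ± 1.22 CPM and the posterior gene Hoxb13 at 273 ± 190 CPM against 0.198 ± 0.123 CPM in preSTC. CPM, the usual depth-scaled count, is a gene's count divided by the total of its library, with the total rescaled by the TMM method so that libraries can be compared. All 10 genes of a colon list were higher in preCTC than in preSTC, and all 7 of an ileal list were lower (edgeR adjusted p under 0.05), so these groups also differ in the gut region whose genes they express. The library preCTC5 stood apart with Hoxb13 at 1.44 CPM against 315 to 445 CPM in the other preCTC libraries. In postSTC1, lactase (Lct), an enzyme of the upper small intestine, was at 243 CPM against at most 7.22 CPM in any other library. In postSTC7, 6 male accessory gland genes took 34.1% of counts (Wilson 95% interval 34.06 to 34.09%, counting error only) against at most 0.0198% in any other library. Summed levels of 9 epithelial markers ranged from 12543 to 15843 CPM in preSTC, 6528 to 13217 CPM in postSTC and 9163 to 13359 CPM in preCTC. Summed levels of 7 smooth muscle markers ranged from 3021 to 4662, 5398 to 8145 and 9868 to 16626 CPM in the same order, and the 4 liver markers together did not pass 3.62 CPM in any library. The part of these differences in the results was not tested, and in bulk tissue fewer cells of a type and less RNA per cell cannot be told apart.

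Levels of different genes were set side by side by FPKM, which divides by gene length. The deposited FPKM was scaled by each library's total counts, not by TMM. In postSTC7, where accessory gland genes took 34.1% of counts, the FPKM of other genes is lowered, and postSTC means include that library. FPKM here ranks genes within a group, and its postSTC means are not comparable with those of the other groups. Gstp1, the pi-class enzyme, had the highest mean FPKM of the GST genes in preSTC, postSTC and preCTC (290, 233 and 268 FPKM). Gsto1, an omega-class enzyme with thiol transferase activity, followed in preSTC and preCTC with 118 and 117 FPKM and was at 98.0 FPKM in postSTC. The mu-class gene Gstm2 was at 58.9, 128 and 99.3 FPKM and had the second mean in postSTC through postSTC7 (190 FPKM against 42.4 FPKM for Gsto1), since in postSTC1, postSTC2 and postSTC5 Gsto1 was above it. The alpha-class gene Gsta5 had a postSTC mean of 98.8 FPKM, above that of Gsto1, through postSTC1. There it was at 323 FPKM, above Gstp1 at 261 FPKM, against 10.0 to 36.6 FPKM in postSTC2, postSTC5 and postSTC7. Among the UGT genes, Ugt2b10 led in every group with 116, 91.1 and 92.0 FPKM. Its means in TMM-scaled CPM were 186 in preSTC, 145 in postSTC and 133 in preCTC. Ugt1a1, the bilirubin-conjugating enzyme, was second in preSTC and postSTC with 25.1 and 29.1 FPKM. In preCTC it was at 23.1 FPKM, below Ugt1a6, which acts on small planar phenols, at 31.9 FPKM. Ugt1a6 was at 8.13 FPKM in preSTC and 16.4 FPKM in postSTC. Its means in TMM-scaled CPM, which can be compared between groups, were 20.0 in preSTC, 39.4 in postSTC and 70.1 in preCTC. The leading SULT gene differed between the groups. Sult2b1, a hydroxysteroid and cholesterol sulfotransferase, led in preSTC and postSTC with 90.7 and 59.6 FPKM and stood at 13.9 FPKM in preCTC. Sult1b1, which sulfates phenols and thyroid hormone, was at 26.0, 46.7 and 85.4 FPKM and led in preCTC. Sult1c2a was at 21.1, 21.4 and 26.2 FPKM.

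The levels per library of 5 abundant members that were not called in any comparison come first. Gstp1 was at 169, 222, 267 and 242 CPM in the preSTC libraries (replicates 1, 5, 7 and 9), at 196, 194, 201 and 150.0 CPM in the postSTC libraries (replicates 1, 2, 5 and 7) and at 157, 214, 204 and 173 CPM in the preCTC libraries (replicates 1, 5, 7 and 9), the order used for every gene. Gsto1 was at 115, 122, 141 and 139 CPM, then 121, 122, 111 and 80.9 CPM, then 122, 131, 116 and 89.2 CPM. Both genes overlapped in range between all 3 groups, with the lowest postSTC value in postSTC7. Ugt2b10 was at 184, 183, 164 and 214 CPM in preSTC, 173, 203, 133 and 70.6 CPM in postSTC and 134, 136, 134 and 128 CPM in preCTC. Ugt1a1 was at 61.6, 54.3, 49.9 and 62.6 CPM, then 89.5, 84.4, 56.7 and 31.9 CPM, then 36.9, 73.6, 29.7 and 48.5 CPM. The preSTC and preCTC ranges of Ugt2b10 did not overlap, and postSTC7 was again the lowest postSTC library for both UGT genes. Sult1c2a spread widely within each group, at 102, 71.0, 44.4 and 65.4 CPM in preSTC, 119, 74.3, 61.8 and 24.1 CPM in postSTC and 119, 126, 38.6 and 31.1 CPM in preCTC. In edgeR's quasi-likelihood test with Benjamini-Hochberg adjustment over the 15704 genes tested, none of Gstp1, Gsto1, Ugt2b10, Ugt1a1 and Sult1c2a was called at an adjusted p under 0.05 in any of the 3 comparisons.

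Summed over the 22 genes, the GST level was 622, 691, 745 and 818 CPM in preSTC, 1166, 780, 731 and 1104 CPM in postSTC and 659, 694, 642 and 592 CPM in preCTC. The 2 high postSTC sums belong to postSTC1 and postSTC7, and they came from different classes. GST alpha genes summed to 552 CPM in postSTC1 against 144 to 199 CPM in the other postSTC libraries, and GST mu genes to 494 CPM in postSTC7 against 209 to 221 CPM. GST theta genes were also highest in postSTC7, at 141 CPM against 47.3 to 55.7 CPM in the other postSTC libraries. The summed UGT level was 338, 296, 273 and 336 CPM in preSTC, 422, 359, 278 and 139 CPM in postSTC and 314, 285, 297 and 285 CPM in preCTC. Summed SULT levels were 358, 244, 261 and 265 CPM, then 393, 284, 265 and 146 CPM, then 280, 292, 227 and 136 CPM. For UGT and SULT genes, postSTC1 held the highest and postSTC7 the lowest postSTC sum. The ratio of group means of postSTC to preSTC was 1.32 for GST, 0.965 for UGT and 0.965 for SULT genes, and each family's postSTC range overlapped its preSTC range.

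**Figure D1:**
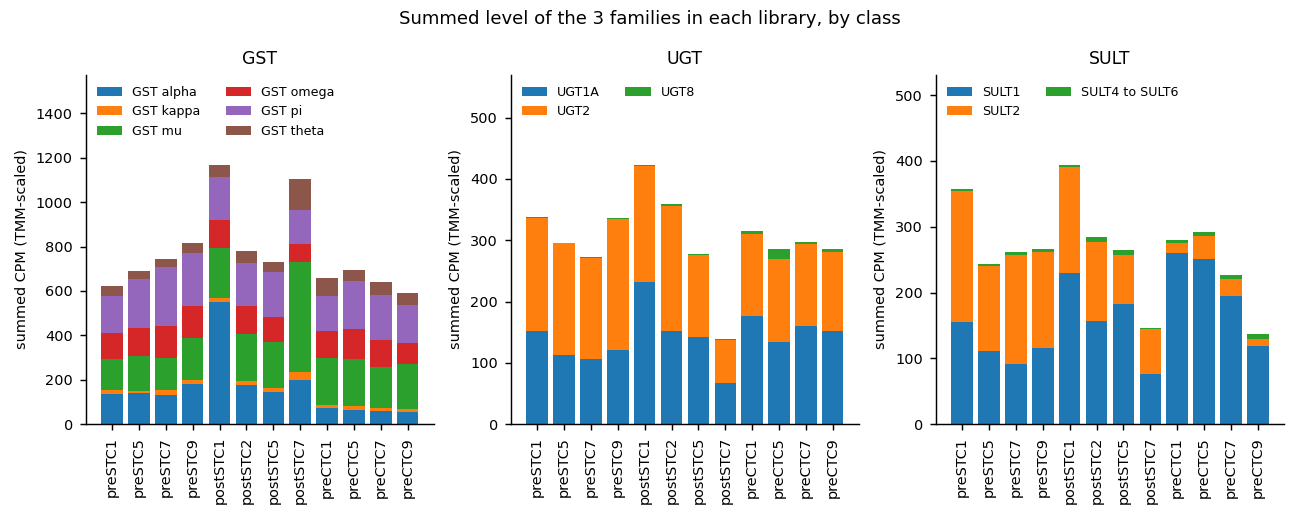
Summed CPM (linear axis from 0) of the GST, UGT and SULT genes in each of the 12 libraries, stacked by class. The GST sum reaches 1166 CPM in postSTC1 through the alpha class. It reaches 1104 CPM in postSTC7 through the mu class and, to a smaller extent, the theta class. The lowest UGT sum, 139 CPM, is that of postSTC7.

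The first comparison, postSTC against preSTC, asks how these genes differed after the operation from before it. Gsta1, Gstm1, Gstm2, Gstt1 and Sult1a1 rose, by 2.06-fold to 6.29-fold, and no member fell. These 5 of 37 tested members (13.5%) stand against 11.1% of all genes tested that were called higher, and 0 members against 6.90% called lower (18.0% called in either direction), so the share of members that rose was near the background. By family, 4 of 21 GST, 0 of 8 UGT and 1 of 8 SULT genes rose. At an unadjusted p under 0.05, edgeR gave 11 members higher and 0 lower, against 20.1% of all genes tested higher and 13.5% lower. DESeq2 and voom, limma's method for counts, also called 0 members lower, though DESeq2 gave no adjusted p for Gsta5. The median log2 fold change was 0.37 over the 37 members and 0.04 over all genes tested; by family it was 0.40 for GST, 0.28 for UGT and 0.40 for SULT. Libraries of these groups with the same replicate number deviated together from their group means. A fit of all 12 libraries with the number as a block kept 2 of the 5 members higher (Gsta1 and Gstt1). In that fit 6.61% of all genes were called higher. A fit of the 8 libraries with the block called 0 members higher, and 0.379% of all genes. Only numbers 1, 5 and 7 occur in both groups, so the 8-library block fit leaves few libraries to estimate the spread. The 12-library fit also blocks preCTC, whose libraries matched the other groups by number for 1 and 7 but not for 5. Colon markers moved with this comparison: 7 of 10 were called higher and 0 lower in postSTC, their summed level ran from 185 to 244 CPM in preSTC, 397 to 930 CPM in postSTC and 2095 to 4512 CPM in preCTC, and 4 of 7 smooth muscle markers were called higher. Fibroblast (2 of 6), endothelium (2 of 4) and enteric neuron and glia (1 of 5) markers were also called higher, with 0 lower. Of the epithelial and ileal enterocyte markers, 1 of 9 and 1 of 7 were called lower and 0 higher. None of the 4 immune markers was called. The part of these markers in the values of the members was not tested.

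**Figure D2:**
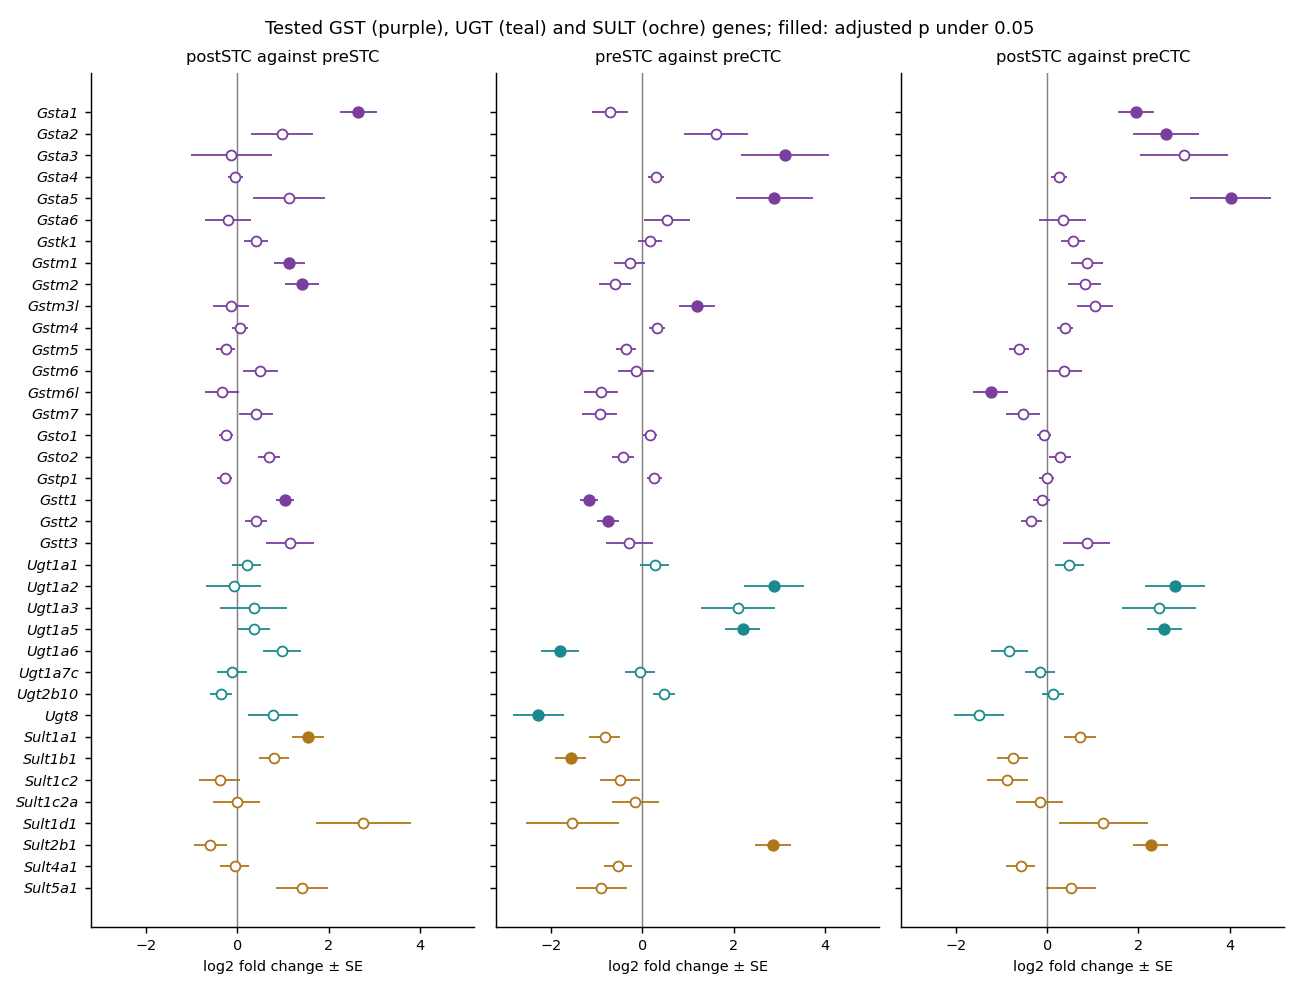
Fitted log2 fold change (points) with its standard error (bars) for the 37 tested members, in a panel for each of the 3 comparisons; filled points mark members called at an adjusted p under 0.05 by edgeR. In postSTC against preSTC the 5 filled points all lie above 0, and in preSTC against preCTC 6 lie above and 5 below 0.

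Gsta1, an alpha-class enzyme that also reduces lipid peroxides, had the largest difference of the members called in this comparison. Its level was 7.92, 7.66, 15.0 and 8.88 CPM in preSTC, 22.9, 49.4, 59.0 and 117 CPM in postSTC and 13.7, 18.1, 15.8 and 16.8 CPM in preCTC. All 4 postSTC libraries lay above all 8 others. The log2 fold change of postSTC against preSTC was 2.65 ± 0.41 (SE, edgeR adjusted p = 0.00221), and 2.57 with the replicate block in 12 libraries (adjusted p = 0.00958). In the 8-library fit with the block it was 2.48 at an adjusted p of 0.0712. Without postSTC7, the highest library, the value was 2.13 (edgeR adjusted p = 0.00143). Against preCTC, Gsta1 was 3.85-fold higher in postSTC, at a log2 value of 1.95 ± 0.40 (edgeR adjusted p = 0.00657). Gsta1 and its neighbours Gsta3 and Gsta6 are adjacent on chromosome 9 in the RefSeq order of genes.

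Gstt1, a theta-class enzyme active on small halogenated compounds, was at 2.88, 3.06, 4.00 and 3.42 CPM in preSTC, 5.34, 6.38, 7.53 and 8.33 CPM in postSTC and 8.45, 5.91, 7.94 and 7.76 CPM in preCTC. The preSTC libraries were below all others, and postSTC and preCTC overlapped. Its log2 fold change of postSTC against preSTC was 1.04 ± 0.20 (edgeR adjusted p = 0.00514), with an adjusted p of 0.0257 with the replicate block in 12 libraries and 0.121 in 8. For preSTC against preCTC it was -1.17 ± 0.20 (edgeR adjusted p = 0.000726), and for postSTC against preCTC -0.13 (adjusted p = 0.7). These comparisons share libraries, so the values are not independent of each other.

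Gstm1 and Gstm2 are mu-class enzymes from neighbouring genes of the Gstm cluster on chromosome 2. Gstm2 was at 58.1, 57.2, 56.5 and 72.1 CPM in preSTC, 114, 96.8, 98.6 and 344 CPM in postSTC and 92.1, 117, 81.8 and 78.0 CPM in preCTC. Gstm1 was at 17.2, 25.1, 22.4 and 23.2 CPM, then 28.7, 38.8, 31.1 and 96.1 CPM, then 29.4, 18.7, 27.8 and 30.4 CPM. In both genes every postSTC library exceeded every preSTC library, and postSTC7, the library with 34.1% of counts from accessory gland genes, was far above the other postSTC libraries. The log2 fold change of Gstm2 was 1.42 ± 0.37 (edgeR adjusted p = 0.021) and without postSTC7 0.75 (adjusted p = 0.006). For Gstm1 it was 1.14 ± 0.34 (edgeR adjusted p = 0.0396) and without postSTC7 0.57 (adjusted p = 0.0499). Both calls were lost with the replicate block, at an adjusted p of 0.0573 (Gstm2) and 0.0845 (Gstm1) in 12 libraries and of 0.145 and 0.208 in 8, all from edgeR. Leaving out preSTC1, preSTC5 or preSTC7 also ended both calls, at adjusted p-values of 0.0558 to 0.0599 for Gstm2 and 0.0688 to 0.107 for Gstm1. The Gstm1 call was lost too without preSTC9 (0.0784) and without preCTC1, preCTC7 or preCTC9 (0.052 to 0.0543), and under voom (0.0791). In a fit of only the 8 libraries compared, edgeR gave an adjusted p of 0.0841 for Gstm1 and 0.0569 for Gstm2.

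Sult1a1, the main phenol sulfotransferase, was at 11.1, 4.58, 8.75 and 7.87 CPM in preSTC, 12.4, 25.9, 35.4 and 20.6 CPM in postSTC and 21.6, 11.6, 13.6 and 10.7 CPM in preCTC. The lowest postSTC library, postSTC1, was just above the highest preSTC library, preSTC1. The log2 fold change of postSTC against preSTC was 1.54 ± 0.35 (edgeR adjusted p = 0.0122) and without postSTC7 1.58 (adjusted p = 0.0144). With the replicate block the edgeR adjusted p was 0.0811 in 12 libraries and 0.231 in 8, which ended the call.

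Of the 37 members tested, 6 had postSTC libraries all above the preSTC libraries, against 11.9% of all genes tested, and 0 had them all below, against 10.2%. The sixth was Gsto2, an omega-class enzyme that reduces dehydroascorbate, with preSTC at 2.59, 2.15, 1.62 and 2.27 CPM and postSTC at 4.11, 3.55, 2.71 and 3.63 CPM. Its log2 fold change was 0.70 (edgeR adjusted p = 0.0698). Without postSTC7 the count of members higher went from 5 to 8, with 11.0% of all genes tested called higher in that setting. The added members were Sult1b1, Ugt1a6 and Sult5a1, chosen for mention after their values were seen, with log2 fold changes of 1.07 (edgeR adjusted p = 0.0072), 1.23 (0.0373) and 1.68 (0.0436). With all 12 libraries, edgeR gave Sult1b1 0.81 (adjusted p = 0.113), Ugt1a6 0.98 (0.119) and Sult5a1 1.42 (0.101). Without postSTC1, Ugt1a2 was called lower, at a log2 fold change of -1.40 (edgeR adjusted p = 0.011), against -0.08 (0.945) with it.

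**Figure D3:**
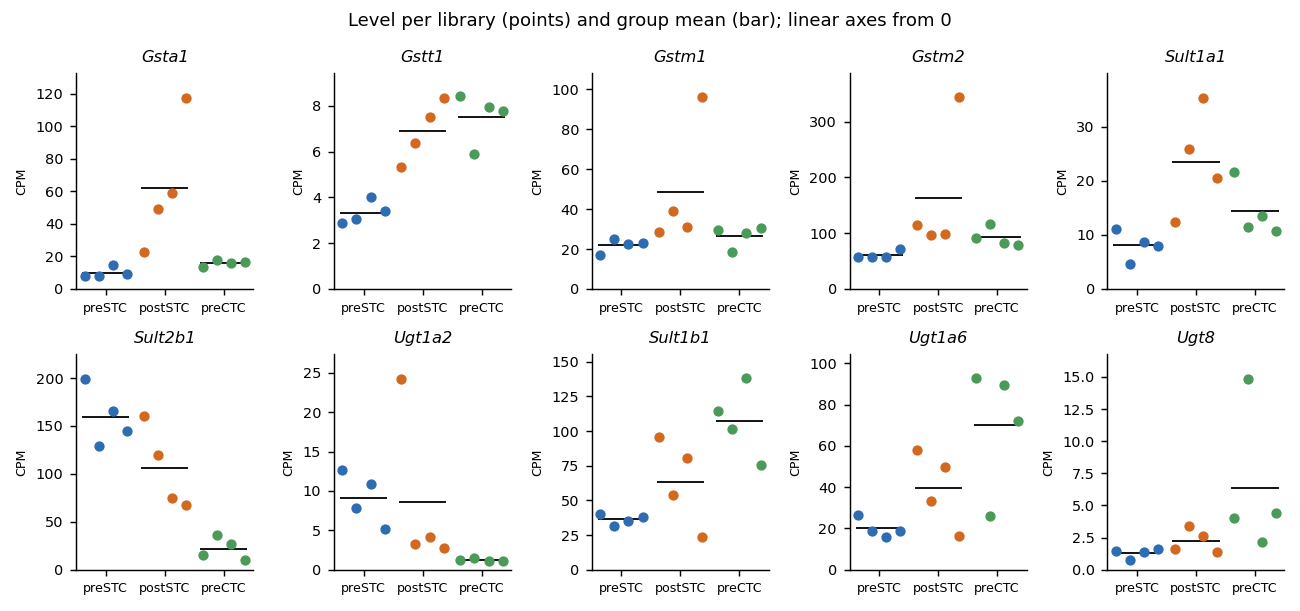
CPM per library (points, linear axes from 0) and group means (bars) of the 5 members called in postSTC against preSTC (upper row) and of 5 members that differed between preSTC and preCTC (lower row). All 4 postSTC points of Gsta1 lie above the other 8, and all 4 preSTC points of Sult2b1 lie above the 4 preCTC points.

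The second comparison, preSTC against preCTC, sets the samples from before each operation beside each other, and it also compares tissue with ileal genes with tissue with colonic genes. Of the 37 members tested, 6 were higher in preSTC and 5 lower (16.2% and 13.5%), against 19.1% and 19.6% of all genes tested and 38.7% called in either direction, so the members were called no more often than genes in general. Higher were Gsta3, Gsta5, Gstm3l, Ugt1a2, Ugt1a5 and Sult2b1, and lower were Gstt1, Gstt2, Ugt1a6, Ugt8 and Sult1b1. The median log2 fold change was -0.15 over the members and -0.02 over all genes tested. By family it was -0.14 for GST, 0.38 for UGT and -0.68 for SULT. Ranges did not overlap for 8 members higher in preSTC and 4 lower, against 22.5% of all genes in each direction.

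Sult2b1 was at 199, 129, 165 and 144 CPM in preSTC, 160, 120, 74.7 and 67.9 CPM in postSTC and 15.9, 35.9, 26.4 and 9.85 CPM in preCTC. Every preSTC and postSTC library was above every preCTC library. The log2 fold change of preSTC against preCTC was 2.86 ± 0.39, or 7.25-fold (edgeR adjusted p = 0.000199). The other major sulfotransferase, Sult1b1, differed the other way, at 40.0, 31.7, 35.4 and 38.0 CPM in preSTC, 95.8, 53.6, 80.9 and 23.6 CPM in postSTC and 115, 102, 138 and 75.3 CPM in preCTC. Its preSTC libraries were below all preCTC libraries, by 2.96-fold at a log2 value of -1.57 ± 0.34 (edgeR adjusted p = 0.00362), and its postSTC libraries spanned both groups with postSTC7 the lowest.

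Within the UGT1A locus, genes differed in opposite directions. Ugt1a2 was at 12.6, 7.82, 10.9 and 5.16 CPM in preSTC, 24.2, 3.33, 4.20 and 2.82 CPM in postSTC and 1.28, 1.55, 1.05 and 1.06 CPM in preCTC. Ugt1a5 was lower in level, at 1.34, 0.751, 0.783 and 1.01 CPM, then 1.39, 1.92, 0.825 and 0.851 CPM, then 0.183, 0.228, 0.180 and 0.241 CPM. For both, preSTC and postSTC lay above preCTC in every library, and preSTC exceeded preCTC by 2.88 ± 0.66 (Ugt1a2, edgeR adjusted p = 0.00501) and 2.20 ± 0.39 (Ugt1a5, adjusted p = 0.000976) on the log2 scale. Ugt1a6 was at 26.3, 19.0, 15.9 and 18.7 CPM in preSTC, 58.2, 33.3, 49.9 and 16.3 CPM in postSTC and 92.9, 26.2, 89.6 and 71.9 CPM in preCTC. It was 3.51-fold lower in preSTC than in preCTC, at a log2 value of -1.81 ± 0.42 (edgeR adjusted p = 0.00545). Its lowest preCTC value, in preCTC5, was just under the highest preSTC value, and preCTC5 is also the library with Hoxb13 at 1.44 CPM. Because UGT1A transcripts share exons, how reads were divided among these genes is uncertain.

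Ugt8, which makes the galactosylceramide of myelin and other membranes, was at 1.43, 0.751, 1.40 and 1.65 CPM in preSTC, 1.62, 3.40, 2.61 and 1.34 CPM in postSTC and 4.00, 14.8, 2.19 and 4.41 CPM in preCTC. It was 4.85-fold lower in preSTC than in preCTC (log2 -2.28 ± 0.56, edgeR adjusted p = 0.00735), and preCTC5 was the highest library. Without preCTC5 the log2 value was -1.43 (edgeR adjusted p = 0.0184).

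Of the 6 alpha-class genes, Gsta3 and Gsta5 were called higher in preSTC than in preCTC. Gsta5 was at 51.2, 35.2, 35.9 and 45.3 CPM in preSTC and 9.68, 2.89, 5.81 and 4.19 CPM in preCTC, a log2 fold change of 2.89 ± 0.84 (edgeR adjusted p = 0.018). Gsta3 was at 15.4, 30.2, 28.0 and 58.7 CPM in preSTC, 64.4, 34.5, 9.10 and 12.5 CPM in postSTC and 0.419, 12.1, 1.59 and 0.964 CPM in preCTC, with a log2 value of 3.13 ± 0.97 for preSTC against preCTC (edgeR adjusted p = 0.0236). Neither gene's preSTC range overlapped its preCTC range, and the highest preCTC value of Gsta3 was in preCTC5, without which the log2 value was 5.05 (edgeR adjusted p = 0.00108). The Gsta3 call was lost without preSTC9, preCTC7 or preCTC9 (edgeR adjusted p = 0.0615, 0.0625 and 0.061), and that of Gsta5 without preCTC9 (0.0515). Gsta2 was at 28.9, 20.7, 20.8 and 25.1 CPM in preSTC and 15.9, 2.53, 6.79 and 5.76 CPM in preCTC, with no overlap and an edgeR adjusted p of 0.0859 at a log2 value of 1.62.

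Gstm3l, a mu-class gene named Gstm3 by RefSeq, was at 10.8, 10.8, 8.37 and 16.1 CPM in preSTC, 17.4, 11.2, 7.82 and 5.37 CPM in postSTC and 3.74, 8.82, 4.27 and 3.35 CPM in preCTC (preSTC against preCTC log2 1.19, edgeR adjusted p = 0.0318). The preSTC and preCTC ranges overlapped through preCTC5. This call ended without preSTC1, preSTC5, preSTC9, preCTC1, preCTC7 or preCTC9, at edgeR adjusted p-values of 0.0532 to 0.0936. Gstt2, a theta-class gene near Gstt1 on chromosome 20, was lower in preSTC by a log2 value of -0.75 (edgeR adjusted p = 0.0257), a call lost without preSTC5, preSTC7, preCTC1 or preCTC9 (0.0535 to 0.0851).

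The third comparison, postSTC against preCTC, shares libraries with the other two. Here 6 of 37 members were higher and 1 lower (16.2% and 2.7%), against 9.27% and 7.37% of all genes tested (16.6% in either direction). Higher were Gsta1, Gsta2, Gsta5, Ugt1a2, Ugt1a5 and Sult2b1, and the member lower was Gstm6l. Ranges did not overlap for 5 members higher in postSTC and 0 lower, against 9.54% and 8.60% of all genes tested. On the log2 scale Sult2b1 was higher by 2.26 ± 0.38 (edgeR adjusted p = 0.00211), Ugt1a5 by 2.57 (0.00102) and Ugt1a2 by 2.80 (0.0136). Without postSTC1, its highest library, the value of Ugt1a2 was 1.48 (edgeR adjusted p = 0.00942). Gsta2 was higher by 2.60 (edgeR adjusted p = 0.0291), a call lost without postSTC1 (1.31, 0.0813) and also without preCTC5, preCTC7 or preCTC9 (0.0638 to 0.0763). Gsta5 was higher by 4.02 ± 0.89 (edgeR adjusted p = 0.00949) and, without postSTC1, its highest library, by 2.06 (0.00366). Gstm6l was lower by a log2 value of -1.24 (edgeR adjusted p = 0.0428), and the call was lost when any library other than postSTC5, postSTC7 or preCTC5 was left out.

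Of the 37 members tested, 20 were called in none of the 3 comparisons. Their log2 fold changes of postSTC against preSTC ran from -0.39 (Sult1c2) to 2.76 (Sult1d1, SE 1.05, edgeR adjusted p = 0.0869). Gsta4, an alpha-class enzyme that acts on the lipid peroxidation product hydroxynonenal, was at 29.3 ± 5.37 CPM in preSTC, 28.4 ± 3.89 CPM in postSTC and 23.8 ± 4.66 CPM in preCTC. Gstm4 and Gstm5 of the mu class had preSTC means of 23.2 ± 3.14 and 25.0 ± 4.75 CPM and postSTC means of 24.3 ± 4.09 and 20.9 ± 4.84 CPM. Ugt1a7c was at 35.4 ± 9.87, 32.7 ± 17.9 and 36.6 ± 6.64 CPM in preSTC, postSTC and preCTC. In these 4 genes the 3 groups overlapped in range. Ugt1a3, at 0.459 to 0.728 CPM in preSTC and 0 to 0.337 CPM in preCTC, did not overlap between those groups and had an edgeR adjusted p of 0.0601. Gsta6, Gstm6, Gstm7, Sult1c2 and Sult4a1 had group means between 0.936 and 14.6 CPM. Of the members under the filter, Gstt4 had 4 counts in each of postSTC2 and postSTC5 and 0 elsewhere, and Ugt1a8, Sult6b1 and Sult1c3 had at most 4, 5 and 9 counts in any library.

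Several members were far higher in postSTC1 than in the other postSTC libraries. Gsta5 was at 297, 32.1, 21.7 and 16.7 CPM in the postSTC libraries, and Gsta2 at 131, 26.4, 16.9 and 14.2 CPM. In both genes postSTC1 was above every other library in the study, while postSTC5 and postSTC7 were below every preSTC library. For Gsta5, postSTC2 was below every preSTC library as well. Their log2 fold changes of postSTC against preSTC were 1.13 (Gsta5, edgeR adjusted p = 0.34) and 0.98 (Gsta2, 0.34), and without postSTC1 they were -0.83 (0.118) and -0.32 (0.663). Ugt1a2 was also highest in postSTC1, with 24.2 CPM there and 2.82 to 4.20 CPM in the other postSTC libraries. Gsta2 and Gsta5 are adjacent on chromosome 8, apart from Gsta1 on chromosome 9.

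The promoters of these alpha-class genes are shown because the closely related enzymes differed in which libraries were high. Each is the RefSeq sequence from 250 bases before to 50 bases after the gene's start on assembly GRCr8: Gsta1 at chr9:31216483-31216782 on the minus strand, Gsta2 at chr8:88077043-88077342 on the minus strand and Gsta5 at chr8:87988104-87988403 on the plus strand. Capitals mark matches on either strand to TGACNNNGC, the core of the antioxidant response element, or to GCGTG, the core of the xenobiotic response element.
Gsta1: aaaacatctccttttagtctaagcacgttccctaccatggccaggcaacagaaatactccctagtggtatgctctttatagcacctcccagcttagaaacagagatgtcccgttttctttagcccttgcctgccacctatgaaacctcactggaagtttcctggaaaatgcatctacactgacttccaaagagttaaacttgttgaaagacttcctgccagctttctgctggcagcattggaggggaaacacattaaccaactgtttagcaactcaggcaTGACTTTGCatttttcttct
Gsta2: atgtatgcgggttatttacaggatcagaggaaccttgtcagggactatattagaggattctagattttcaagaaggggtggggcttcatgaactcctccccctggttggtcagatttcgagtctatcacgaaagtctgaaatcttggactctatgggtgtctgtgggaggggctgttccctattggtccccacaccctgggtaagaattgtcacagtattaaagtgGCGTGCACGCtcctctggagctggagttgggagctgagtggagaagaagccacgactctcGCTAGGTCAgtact
Gsta5: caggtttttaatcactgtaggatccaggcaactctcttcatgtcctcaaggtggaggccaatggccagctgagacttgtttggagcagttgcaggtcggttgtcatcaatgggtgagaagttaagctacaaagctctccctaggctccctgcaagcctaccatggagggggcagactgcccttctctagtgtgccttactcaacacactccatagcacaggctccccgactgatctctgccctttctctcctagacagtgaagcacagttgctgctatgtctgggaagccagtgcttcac
Gsta1 held 1 match to TGACNNNGC, Gsta2 held 1 such match and 2 adjacent matches to GCGTG on opposite strands, and Gsta5 held 0 matches to either. TGACNNNGC was present in 12.1% of 33469 rat promoters of this length and in 6 of 44 promoter entries of the members, all of them GST genes (Gsta1, Gsta2, Gsta3, Gstm5, Gstm7 and Gstp1). GCGTG was present in 29.7% of all promoters and in 13 of the 44 entries. Pairwise identity of aligned promoters was 47.4% for Gsta2 and Gsta5 and 57.7% for Gsta1 and Gsta3. A match describes the letters of the window only. The 44 entries belong to 42 of the 47 members; the others were Gstm6l, Gstt1, Gstt2, Ugt1a5 and Sult4a1.

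The same library carried the UGT2 genes that did not pass the filter. Ugt2a3 had 198 counts in postSTC1 and 0 in the other 11 libraries, and Ugt2b15 had 188 counts in postSTC1, 1 in postSTC2 and 0 elsewhere. Ugt2b35 had 62 counts and Ugt2b37 had 9 counts in postSTC1 and 0 elsewhere, and Ugt2b7 had 30 counts in postSTC1 with 1 each in preSTC1 and preSTC7. These enzymes conjugate steroids, bile acids and phenols, and apart from the few counts named they were not detected in the other libraries at this depth. A count of 0 over preSTC allows a level up to 0.0206 CPM, and over preCTC up to 0.0190 CPM (3 counts over the group, counting error only). In RefSeq order on chromosome 14 these genes run Sult1d1, Sult1b1, Ugt2a3, Ugt2b15, Ugt2b37, Ugt2b35, Ugt2b7, Ugt2b17 and Ugt2b10. Ugt2b10, at the end of the cluster, did not stand out in postSTC1, at 173 CPM against 203 CPM in postSTC2, and Ugt2b17 had 8 counts there against 0 to 23 in the other libraries. Of the 4 markers listed for the upper small intestine, 3 were highest in postSTC1 of all 12 libraries: Lct at 243 CPM, the transcription factor gene Gata4 at 28.6 CPM against at most 0.414 CPM in any other library, and Onecut2 at 2.88 CPM against at most 0.133 CPM. The fourth, the fatty acid binding protein gene Fabp1, was at 1621 CPM in postSTC1, above the other postSTC libraries (819 to 940 CPM) but below all preSTC libraries (1904 to 2500 CPM). The summed level of the 4 markers was 1896 CPM in postSTC1, 820 to 940 CPM in the other postSTC libraries, 1904 to 2500 CPM in preSTC and 3.88 to 35.5 CPM in preCTC. Apoa4, an apolipoprotein gene of the ileal list, was at 2966 CPM in postSTC1 against at most 186 CPM in any other library. The part of these markers in the UGT2 and alpha-class values of postSTC1 was not tested.

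Promoters of Ugt2b15 and Ugt2b35, seen in postSTC1, are shown beside that of Ugt2b10, abundant in all 12 libraries. They lie at chr14:21122616-21122915, chr14:21208191-21208490 and chr14:21462591-21462890 on the plus strand of GRCr8. Capitals mark TTTAT, the core bound by caudal-type homeobox factors, on either strand; on the minus strand it reads ATAAA, which overlaps TATA-like letters.
Ugt2b15: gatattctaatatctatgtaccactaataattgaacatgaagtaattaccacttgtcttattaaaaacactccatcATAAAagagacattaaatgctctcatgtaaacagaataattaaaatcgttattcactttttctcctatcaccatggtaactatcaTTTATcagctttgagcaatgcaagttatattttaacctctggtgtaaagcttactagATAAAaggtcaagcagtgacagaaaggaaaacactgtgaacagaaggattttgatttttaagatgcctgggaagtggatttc
Ugt2b35: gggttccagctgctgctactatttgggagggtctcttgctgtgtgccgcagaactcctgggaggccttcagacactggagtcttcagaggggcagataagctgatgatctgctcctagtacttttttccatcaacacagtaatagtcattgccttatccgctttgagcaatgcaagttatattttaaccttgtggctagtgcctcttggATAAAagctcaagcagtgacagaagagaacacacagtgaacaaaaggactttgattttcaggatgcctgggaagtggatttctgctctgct
Ugt2b10: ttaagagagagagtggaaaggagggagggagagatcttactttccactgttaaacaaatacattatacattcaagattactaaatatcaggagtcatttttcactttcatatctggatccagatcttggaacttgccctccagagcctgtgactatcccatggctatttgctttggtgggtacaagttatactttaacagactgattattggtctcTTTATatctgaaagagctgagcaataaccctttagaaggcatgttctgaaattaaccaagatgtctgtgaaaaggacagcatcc
Ugt2b15 held 3 matches, Ugt2b35 held 1 and Ugt2b10 held 1, and TTTAT was present in 42.5% of all promoters and in 23 of the 44 entries. Identity between aligned promoters was 50.9% for Ugt2b10 and Ugt2b15 and 85.3% for Ugt2b15 and Ugt2b37. Promoter identity does not describe the transcripts, whose identity was not compared. How reads matching several genes were treated is not given, so the split of counts among the UGT2B, Gsta and Gstm copies is uncertain.

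A second group of members stood apart in postSTC7. Gstt3 was at 21.0, 22.4, 18.2 and 114 CPM in postSTC, Gstk1 at 18.0, 17.1, 16.8 and 35.6 CPM and Sult1d1 at 0.0647, 0.493, 0.905 and 6.27 CPM. Each of these had its highest level of all 12 libraries in postSTC7, as did Gstm1 and Gstm2. Gstk1 is a mitochondrial and peroxisomal enzyme and Sult1d1 sulfates catecholamines and other phenols. In preSTC the same genes were at 17.1 to 22.3 CPM (Gstt3), 13.1 to 18.3 CPM (Gstk1) and 0.112 to 0.492 CPM (Sult1d1), so the other 3 postSTC libraries of Gstt3 were close to preSTC. The accessory gland genes were at 34.1% of counts in postSTC7, and their part in these 5 values was not tested. Taking the 6 accessory gland genes out of the table and refitting left each of the called members called. The refit dropped only those 6 genes and kept all other reads of postSTC7, so it cannot tell where those reads came from.

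**Figure D4:**
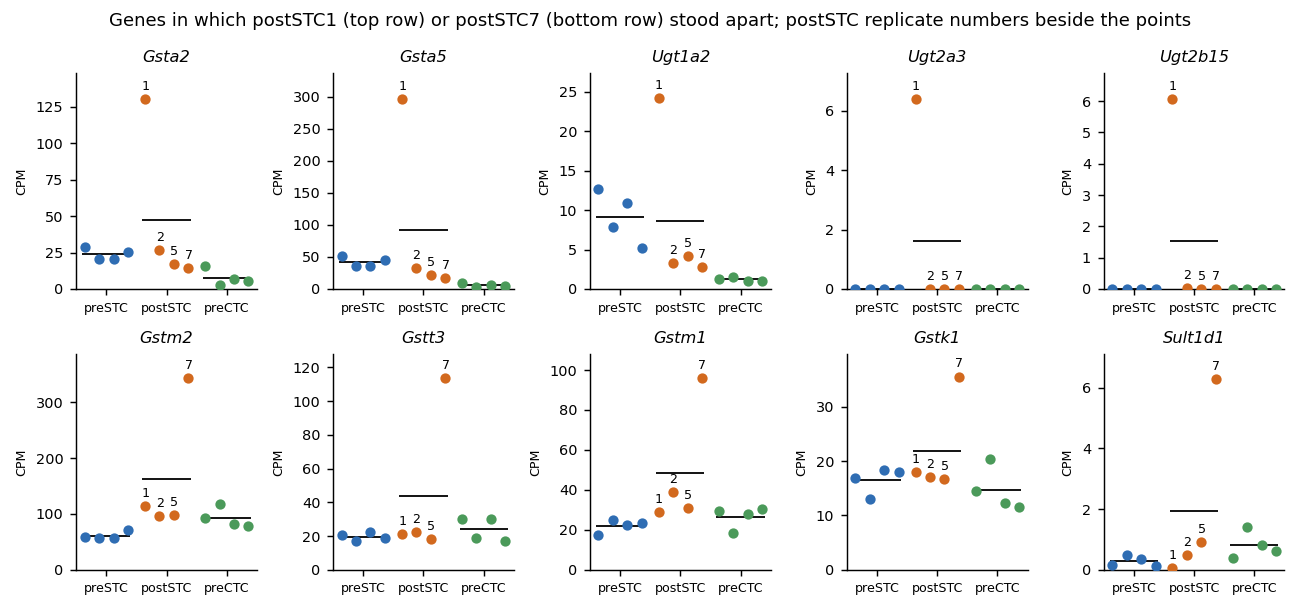
CPM per library (points, linear axes from 0) and group means (bars) of 5 members whose highest library was postSTC1 (upper row) and 5 whose highest library was postSTC7 (lower row), with postSTC replicate numbers beside the points. Ugt2a3 stands at 6.40 CPM in postSTC1 and 0 in all other libraries, and Gstm2 at 344 CPM in postSTC7 against 96.8 to 114 CPM in the other postSTC libraries.

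Genes that supply, remove or export the conjugates were examined by lists. In postSTC against preSTC, 2 of 9 glutathione supply genes rose and 2 fell. Gclm, the modifier subunit of the enzyme that starts glutathione synthesis, rose from 28.8 ± 1.97 to 39.9 ± 6.83 CPM (edgeR adjusted p = 0.028), and Oplah, which returns oxoproline to glutamate, from 9.91 ± 1.96 to 20.0 ± 7.07 CPM (0.013). Gsr, glutathione reductase, fell from 312 ± 22.4 to 215 ± 42.7 CPM (edgeR adjusted p = 0.025), and the glutaredoxin gene Glrx from 597 ± 59.9 to 236 ± 91.7 CPM (0.016). Among 8 glutathione transferases outside the symbol rule, Ltc4s, which makes leukotriene C4, rose from 1.29 ± 0.387 to 3.27 ± 1.06 CPM (edgeR adjusted p = 0.044), and Gstcd fell from 17.4 ± 1.33 to 12.4 ± 1.09 CPM (0.016). None of 7 mercapturate pathway genes, 5 glucuronate genes or 9 genes of other small-molecule conjugation passed the test.

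Among 11 genes of sulfate supply and removal, 2 rose and 2 fell. Papss2, which makes the PAPS used by all SULT enzymes, was at 20.5, 18.5, 19.3 and 17.3 CPM in preSTC, 330, 38.6, 73.9 and 160 CPM in postSTC and 90.8, 25.0, 80.3 and 93.6 CPM in preCTC. It rose 7.97-fold in postSTC over preSTC (log2 2.99, edgeR adjusted p = 0.0069), with no overlap and the highest value in postSTC1, without which the log2 value was 2.26 (edgeR adjusted p = 0.00856). Steroid sulfatase (Sts), which removes sulfate, rose from 7.29 ± 1.03 to 11.8 ± 2.51 CPM (edgeR adjusted p = 0.032). The sulfate carrier Slc26a2 fell from 273 ± 22.4 to 169 ± 39.6 CPM (edgeR adjusted p = 0.023), and sulfite oxidase (Suox) from 575 ± 61.0 to 302 ± 113 CPM (0.016). The preCTC means of Sts and Papss2 were above those of preSTC, at 12.1 ± 2.64 and 72.4 ± 32.1 CPM, and that of Suox was 12.0 ± 1.43 CPM.

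Of 8 conjugate transporters, Abcc5, an exporter of glutathione conjugates and nucleotides, rose from 23.9 ± 3.26 to 40.1 ± 2.97 CPM (edgeR adjusted p = 0.0025) and none fell. Among 12 regulators, Nr1i3, the constitutive androstane receptor, rose from 1.81 ± 0.625 to 4.74 ± 2.90 CPM (edgeR adjusted p = 0.042), and Nr1h4, the bile acid receptor, fell from 137 ± 24.2 to 68.3 ± 26.3 CPM (0.022). Ahr, Nfe2l2 and Keap1 were not called. Of 13 other target genes of NRF2, the factor encoded by Nfe2l2, 2 rose (Gclm and Osgin1) and 2 fell (Tkt and Taldo1), and 0 of 5 other target genes of the aryl hydrocarbon receptor passed the test. At the same call rule, 11.1% of all genes tested rose and 6.90% fell. Across these lists 16 genes were called, of which the replicate block kept 7 in 12 libraries (Abcc5, Gstcd, Nr1h4, Oplah, Papss2, Sts and Suox) and 0 in 8, and 4 stayed called with each library left out in turn (Abcc5, Glrx, Oplah and Papss2).

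In preSTC against preCTC, genes on several of the lists differed. Ggt1 and Anpep, brush-border enzymes that trim glutathione conjugates, were at 358 and 2500 CPM in preSTC against 9.06 and 25.2 CPM in preCTC, and 4 of 7 mercapturate genes were higher and 1 lower. Mgst1, a microsomal glutathione transferase, was at 258 against 41.4 CPM (edgeR adjusted p = 8.7e-05), and 3 of 8 other glutathione transferases were higher and 0 lower. The sulfate carrier Slc13a1 was at 1210 against 2.03 CPM, and 2 of 11 sulfate genes were higher and 4 lower. Of 8 transporters 3 were higher and 3 lower, among them Abcg2, an exporter of sulfate conjugates, at 378 against 43.6 CPM. The aryl hydrocarbon receptor targets Cyp1a1 and Cyp1b1 were at 19.4 and 6.08 CPM in preSTC against 0.83 and 0.391 CPM in preCTC, both called higher, and 2 of 5 genes of that list were called. These counts stand beside 19.1% of all genes called higher and 19.6% called lower.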

How the data were processed

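The authors deposited a table of whole-number read counts for each gene and library; per the submitters' processing notes, fastp, HISAT2 and HTSeq and assembly mRatBN7.2 were used, with versions and roles not given in the sources used here. Use of strand and treatment of reads matching several genes are also not given. The series' design text names another species and counter and was not used. The authors' deposited FPKM table was used only to compare levels between genes. Groups and replicate numbers came from titles. In R 4.3.3, edgeR 4.0.16 (TMM, filterByExpr) kept 15704 of 18749 genes (83.8%). A quasi-likelihood model of all 12 libraries with the group as its term was tested gene by gene, with Benjamini-Hochberg adjustment over all tested genes and calls at an adjusted p under 0.05; SE is the absolute log2 fold change over the square root of F. Alternatives were limma 3.58.1 (voom), DESeq2 1.42.0, other scaling, no filter, other sample sets and single libraries left out. Between postSTC and preSTC, deviations from group means correlated at 0.236, 0.158 and 0.168 for numbers 1, 5 and 7, and each library matched its own number best, so the numbers were taken to pair these samples. The pairing comes from the titles, which do not say what a number marks. The main fit left the pairing out, and the replicate block was run as an alternative. Total counts per library (30095656 to 39374682) set the precision, and intervals and floors cover counting error only, since amplified reads do not each stand for a separate molecule. The fit was tested on simulated counts. Identifiers of 18531 genes (98.8%), all 47 members included, matched RefSeq (GRCr8). Members named with values per library are those called in postSTC against preSTC, those called with at least a 2-fold difference in preSTC against preCTC and the 3 per family with the highest mean FPKM; others were added after their values were seen. Members and lists were chosen with earlier results of these data known.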

Additional observations from a re-analysis of the deposited data

Results flagged for a closer look

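Dixon's test was run on 138 sets of 4 libraries (1 gene, or the summed level of 1 family, in 1 group). In 23 the gap of the highest or lowest library to the next was beyond the 95% critical value of 0.829. Chance gives about 1 set in 20 for normally spread values. That share does not hold for genes near 0, since a set with 0 in all libraries but 1 always passes. Ugt2a3, Ugt2b35, Ugt2b37 and Ugt2b7 in postSTC1 were such sets. In postSTC1 these were Gsta2 at 131 CPM, Gsta5 at 297 CPM, Ugt1a2 at 24.2 CPM, Ugt2a3 at 6.40 CPM, Ugt2b15 at 6.08 CPM, Ugt2b35 at 2.00 CPM, Ugt2b37 at 0.291 CPM and Ugt2b7 at 0.970 CPM. In postSTC7 they were Gstk1 at 35.6 CPM, Gstm1 at 96.1 CPM, Gstm2 at 344 CPM, Gstt3 at 114 CPM and Sult1d1 at 6.27 CPM, all high, and Gstp1 at 150.0 CPM, which was low. In preCTC5 Gsta3 was high at 12.1 CPM and Gstm3l at 8.82 CPM. The other sets were Gsta1 in preSTC7 at 15.0 CPM, Gstm2 in preSTC9 at 72.1 CPM and Gstm7 in preCTC9 at 21.4 CPM. Genes at or near 0 gave Sult1c3 at 0.133 CPM and Ugt1a8 at 0.106 CPM in postSTC5, Sult6b1 at 0.0246 CPM in postSTC2 and Ugt1a8 at 0.0262 CPM in preCTC1, each of which is 1 to 5 counts.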

How the results depend on the processing

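No value below reversed its direction when it was called. The count of members higher in postSTC than preSTC (5) was 3 in a fit of the 8 libraries compared and 3 to 8 with 1 library left out (3 without preSTC1, preSTC5 or preSTC7, and 8 without postSTC7). Of all genes, 7.01% were higher in that 8-library fit, 6.27 to 6.95% without those preSTC libraries and 11.0% without postSTC7. With the replicate block, which pairs libraries of the same number, the count of members higher was 2 in 12 libraries and 0 in 8. In this comparison postSTC2 and preSTC9 have no partner. Over all genes, the block in 12 libraries left 1038 higher and 708 lower (11.1%), and in 8 libraries 58 and 8 (0.432%). Members lower (0) numbered 0 to 1 with 1 library left out (3.78 to 9.25% of all genes). They numbered 1 with postSTC replicates 2 and 5 only (7.19%), a setting added after seeing the data. For preSTC against preCTC, 5 members and 19.6% of all genes were lower in the main fit. Members lower numbered 8 by DESeq2 (21.8% of all genes), 10 in the 8-library fit (25.4%) and 11 with its block (24.0%). They numbered 4 to 8 with 1 library left out (16.0 to 23.3%) and 11 with postSTC replicates 2 and 5 only (25.0%). For postSTC against preCTC, members higher (6) numbered 0 in the 8-library fit with the block, against 0.844% of all genes. Members lower (1, against 7.37% of all genes) numbered 3 by DESeq2 (10.1%), 0 by voom (7.71%) and 0 in the 8-library fit (4.33%). They numbered 0 with either block (3.77% in 12 libraries, 0.136% in 8). With 1 library left out they numbered 0 to 2 (5.06 to 8.84%), and 0 with postSTC replicates 2 and 5 only (6.72%). In these 2 comparisons the numbers matched only in part, with correlations of -0.028 to 0.222 and -0.016 to 0.220. Libraries numbered 1 and 7 matched their own number best in both, and those numbered 5 did not. The summed UGT ratio of preSTC to preCTC was 1.05, and 0.944 with CPM by total counts. The cause of these shifts was not tested. DESeq2 gave no adjusted p for Gsta5 in any of the 3 comparisons. Of the called members' values, 37 lost their call with 1 library left out and 239 kept it. Depth limits the genes under 1 CPM.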
